A study of Mus musculus with 68 samples.

Results

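The step described here is the passage of wild type (WT) mouse bone marrow erythroid cells into the ERY-III-VI gate, set against the WT ERY-I-II gate before it. All 3 libraries labelled WT ERY-III-VI and all 3 labelled WT ERY-I-II were taken, 6 of the 68 libraries of the study, and all genes were examined. The source names call the ERY-III-VI cells PolyE/OrthoE (polychromatic and orthochromatic erythroblasts) and the ERY-I-II cells ProE/BasoE (proerythroblasts and basophilic erythroblasts). Cells of both gates came from bone marrow and were enriched by flow cytometry, and total RNA was sequenced with a stranded kit for low input. The study holds 2 sets of libraries, a knockout set with WT and GS-KO cells in 5 gates and a stage set with 8 gates. The labels do not expand GS, and the GS-KO libraries enter below in 1 paragraph. Strain, age, sex and treatment of the mice, the surface markers of the gates, and whether the 3 libraries of a gate came from separate mice are not given in the labels.

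Erythroblasts of the earlier gate are large dividing cells that make ribosomes and grow. In the later gate they divide a last few times, fill with hemoglobin, lay down the red cell membrane skeleton, shrink, clear organelles and condense the nucleus before expelling it. The transcription factors GATA1, KLF1 and TAL1 drive this programme, the receptor for erythropoietin keeps the cells alive through STAT5 and BCL-XL, and the withdrawal of KIT signalling and MYC goes with the end of growth.

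Total counts were 9589935, 8376947 and 5025792 in WT ERY-III-VI and 6385845, 9872755 and 6682070 in WT ERY-I-II, with 11892 to 12460 genes detected in WT ERY-III-VI libraries and 12699 to 13228 in WT ERY-I-II libraries. Levels below are counts per 1000000 after scaling with TMM ("scaled CPM"). TMM makes a trimmed mean of log ratios equal between libraries, on the assumption that most genes do not change. The directions below depend on that assumption. The defining erythroid genes fixed as markers were high in all 6 libraries, from 217.9 (Epor) to 26920 scaled CPM (Hbb-b1) in WT ERY-III-VI and from 91.8 to 5254 (Slc4a1) in WT ERY-I-II. The libraries of 1 gate lay closer together than those of the stage set. The chi-square per degree of freedom between 2 libraries of a gate was 1.8 to 3.78 over 6 pairs, against 7.63 to 96.7 over 18 pairs in stage ERY-II, ERY-III and ERY-IV, and the biological coefficient of variation was 4.5%, against 36% there. Neither coefficient was fitted with a term for the replicate number. The p-values below measure only the spread between these 6 libraries, which may be technical.

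The step changed most of the transcriptome. Of 9503 genes tested with edgeR, 6973 (73.4%) passed an adjusted p of 0.05, of which 3357 (35.3%) rose and 3616 (38.1%) fell. A change beyond 2-fold passed in 1847 genes (19.4%), of which 911 (9.59%) rose and 936 (9.85%) fell, and the gates did not overlap in 7100 genes (74.7%). The genes that rose beyond 2-fold were abundant ones, with a median of 166.7 scaled CPM in WT ERY-III-VI, and those that fell beyond 2-fold were scarce, with a median of 3.08 in WT ERY-III-VI and 12.5 in WT ERY-I-II. The 10 most abundant genes took 13.4% of the counts in each WT ERY-III-VI library, against 6.18 to 6.24% in WT ERY-I-II. Relative to library totals without TMM the median gene fell by 0.78 on the log2 scale, against -0.066 with TMM, and 1363 genes rose while 6609 fell, so each direction below is relative to the median gene. With each triplicate summed to 1 library and the spread of every gene taken from stage ERY-II to ERY-IV, a setting chosen after seeing the data, 338 genes rose and 4 fell, 20 and 0 of them beyond 2-fold. That spread was estimated without a term for the replicate number, so it holds differences between replicates that those gates shared. Whether calls were lost in this summed setting through them was not tested. Of the 143 named genes tested, most of them chosen because they were called, all were called in the main fit. In the summed setting 35 kept the call, and all 35 were higher.

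**Figure D1:**
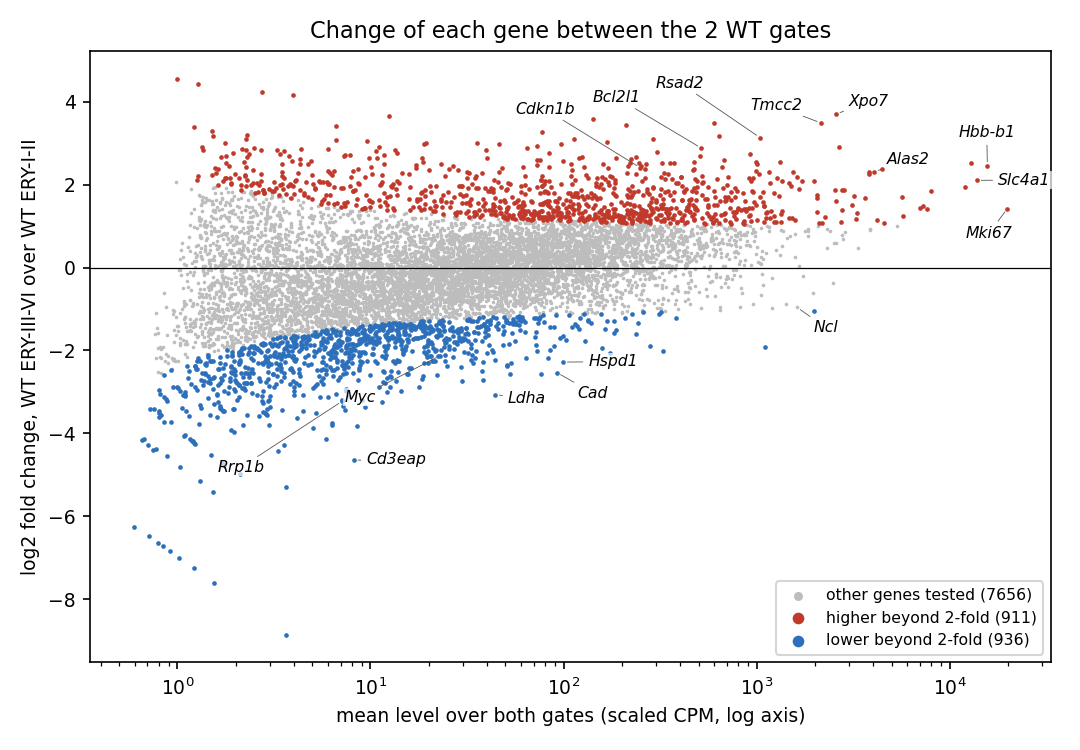
Change of each of 9503 genes tested between the WT gates. The x axis is the mean level over both gates (scaled CPM, log axis), the y axis the log2 fold change of WT ERY-III-VI over WT ERY-I-II, and each point 1 gene, red for 911 higher and blue for 936 lower beyond 2-fold. The higher genes reach the right edge, with Hbb-b1, Slc4a1 and Mki67 among the most abundant, and the lower genes lie mostly at low levels, where a fitted value depends on the prior count once a gate holds no more than 3 counts.

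The largest rise among genes of at least 10 scaled CPM was that of Xpo7, a nuclear export receptor that mouse erythroblasts need for nuclear condensation. Xpo7 had 4807, 4778 and 4802 scaled CPM in WT ERY-III-VI, against 367, 368 and 372 in WT ERY-I-II. Every later library was above every earlier one, with a log2 fold change of 3.70 ± 0.021 (SE) and an edgeR adjusted p of 1.35e-45. The next were Ifit1, an interferon-induced RNA-binding protein, and Tcp11l2, at 3.65 and 3.59 on the log2 scale. Tmcc2, a coiled-coil membrane protein, had 4035, 3962 and 3881 scaled CPM in WT ERY-III-VI and 349, 352 and 359.6 in WT ERY-I-II (log2 fold change 3.49 ± 0.023, edgeR adjusted p = 9.24e-44). Also among the 12 highest were the ribonuclease Slfn14 (3.48), the ankyrin repeat gene Sowaha (3.44), Syt14 of the synaptotagmin family (3.42), the uncharacterised E130309D14Rik (3.26), the phosphodiesterase Gpcpd1 (3.17), Rsad2 (3.13), the tubulin cofactor relative Tbcel (3.11) and the secreted glycoprotein Reln (3.10), all as log2 fold changes. The summed setting called 10 of these 12.

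The 12 lowest were scarce genes, with 11.1 to 20.8 scaled CPM in WT ERY-I-II. Cd3eap, a subunit of RNA polymerase I despite its name, had 0.133, 1.38 and 0.255 scaled CPM in WT ERY-III-VI and 17.7, 14.5 and 15.2 in WT ERY-I-II. The gates did not overlap, with a log2 fold change of -4.65 ± 0.35 and an edgeR adjusted p of 1.15e-13. Rrp1b and Gpatch4 of the nucleolus changed by -3.22 and -3.25, Srm, the enzyme that makes spermidine, by -3.21, and Fpgs, which retains folate in cells, by -3.34. The mitochondrial ADP/ATP carrier gene Slc25a4 changed by -3.36, Suclg2 of the TCA cycle by -3.43, and the fatty acid activating enzyme Acsl6 by -4.14. The protease gene Hpn, the repressor Bend3, the septin Sept4 and the lipid kinase Pip4k2b made up the rest, between -3.81 and -3.21. None of the 12 was called in the summed setting.

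**Figure D2:**
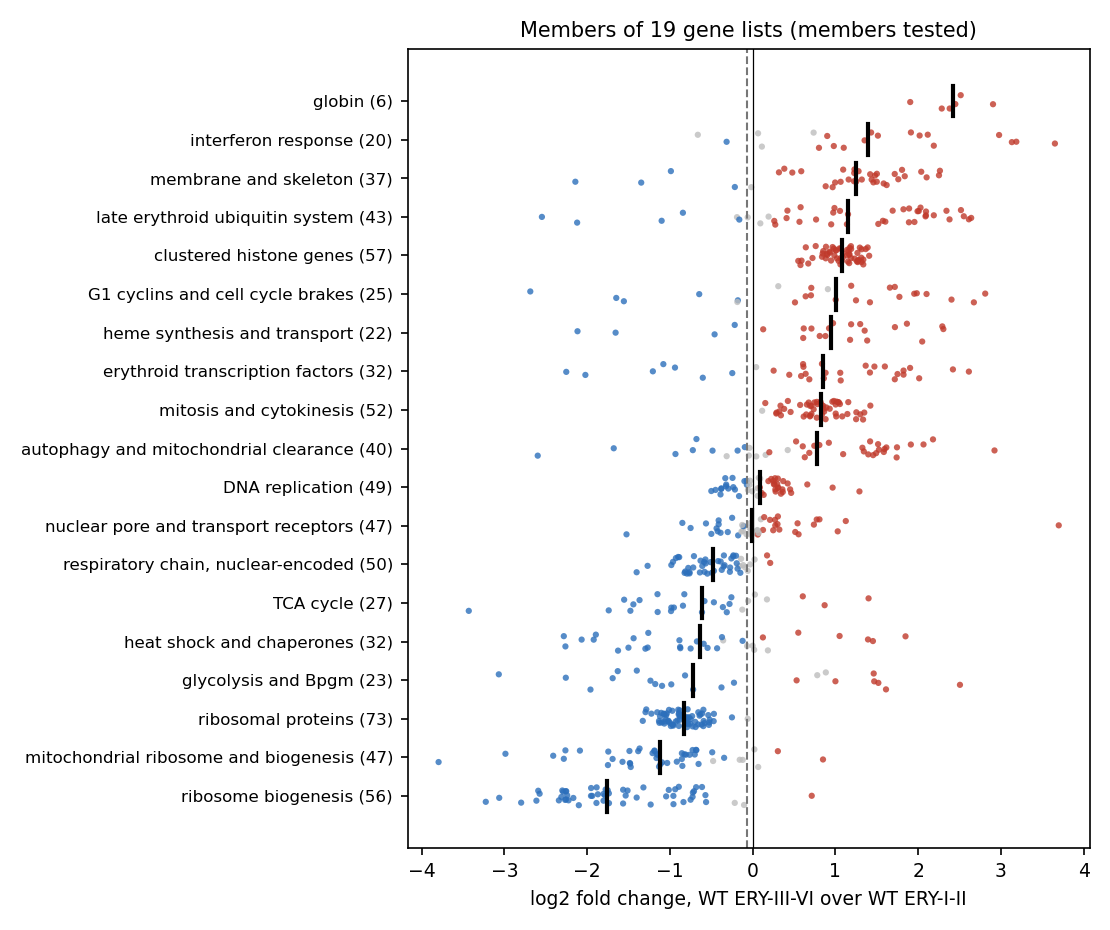
Log2 fold change, WT ERY-III-VI over WT ERY-I-II, of every tested member of the gene lists (x axis, log2 scale), with 1 line of points a list and a mark at its median. Medians of globin, membrane, mitosis and histone genes sit right of 0, with 5 of 37 membrane genes left of it, and those of ribosomal protein genes, at -0.83, and ribosome biogenesis genes, at -1.76, sit left of it.

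Hemoglobin genes rose together. Hba-a1, the adult alpha globin gene, had 21869, 22086 and 22148 scaled CPM in WT ERY-III-VI, against 3884, 3873 and 3805 in WT ERY-I-II. The 2 gates lay far apart and each was tight, with a log2 fold change of 2.52 ± 0.014 (edgeR adjusted p = 1.15e-45). Hbb-b1, an adult beta globin gene, had 26919.5, 26147 and 26407 scaled CPM in WT ERY-III-VI and 4812, 4845 and 4885 in WT ERY-I-II (log2 fold change 2.45 ± 0.014, edgeR adjusted p = 1.15e-45), again with no overlap. All 6 globin genes tested rose beyond 2-fold, with a median log2 fold change of 2.42, from 1.91 for the theta gene Hbq1a to 2.91 for Hba-a2. The globin genes are near-identical in pairs, and reads may be split between copies. Together they took 4.77, 4.71 and 4.75% of counts in WT ERY-III-VI, against 1.38, 1.39 and 1.38% in WT ERY-I-II, a difference of 3.36 percentage points (exact two-sided permutation p = 0.1, the smallest that 3 against 3 can give). Per kilobase of exon Hba-a1 ranked first in WT ERY-III-VI among the 9447 tested genes with an exon length, at 31523 scaled CPM per kilobase. It had 5514 in WT ERY-I-II. Hbb-b1, with more scaled CPM than Hba-a1, had no exon length and was not ranked. In whole populations, fewer cells of a type and less RNA per cell cannot be told apart. In the summed setting none of the 6 globin genes was called, and Hba-a1 had an adjusted p of 0.14.

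Heme synthesis went the same way. Of 22 genes of heme synthesis and transport tested, 18 rose and 4 fell, 10 and 2 of them beyond 2-fold, with a median log2 fold change of 0.95 (all genes -0.066), against 14 higher and 6 lower relative to library totals. Alas2, the erythroid enzyme that starts heme synthesis, had 6932, 6709 and 6677 scaled CPM in WT ERY-III-VI and 1387, 1354 and 1370 in WT ERY-I-II, without overlap (log2 fold change 2.31 ± 0.019, edgeR adjusted p = 3.35e-41). Slc25a37 (mitoferrin 1), which carries iron into mitochondria, had 6361, 6317 and 6374 scaled CPM in WT ERY-III-VI and 1309.5, 1289 and 1289.5 in WT ERY-I-II (log2 fold change 2.29 ± 0.018). Both were about as far apart between gates as the globin genes. Fech, which inserts the iron, changed by 1.87 ± 0.022, the porphyrin chain enzymes Urod by 1.18 and Ppox by 1.30, and Tspo2, a relative of the translocator protein, by 1.39. The members that fell included Alas1, the housekeeping form of the first enzyme (-0.46), and Mfsd7b, the heme exporter gene (-2.12). With the triplicates summed 3 of the 22 rose and 0 fell.

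Of 21 genes of iron uptake and storage, 11 rose and 3 fell, with a median of 0.46, which was 0.21 without WT ERY-III-VI replicate 2 and turned to -0.26 relative to library totals, with 7 higher and 12 lower. Tfrc, the transferrin receptor, had 4472, 4587 and 4496 scaled CPM in WT ERY-III-VI and 2005, 2026 and 2035 in WT ERY-I-II (log2 fold change 1.16 ± 0.018, edgeR adjusted p = 4.63e-33). Ncoa4, which delivers ferritin for breakdown, changed more, with 428, 422 and 419 scaled CPM in WT ERY-III-VI and 75.5, 74.9 and 83.7 in WT ERY-I-II (log2 fold change 2.44 ± 0.044). Every later library was higher for both genes. Isca1 and Iscu of iron-sulfur cluster assembly rose by 1.74 and 1.26, while Aco1, an iron-sensing regulator of messenger RNA, changed by -1.52 and Tfr2, a relative of the transferrin receptor, by -0.89. None of the 21 was called in the summed setting.

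**Figure D3:**
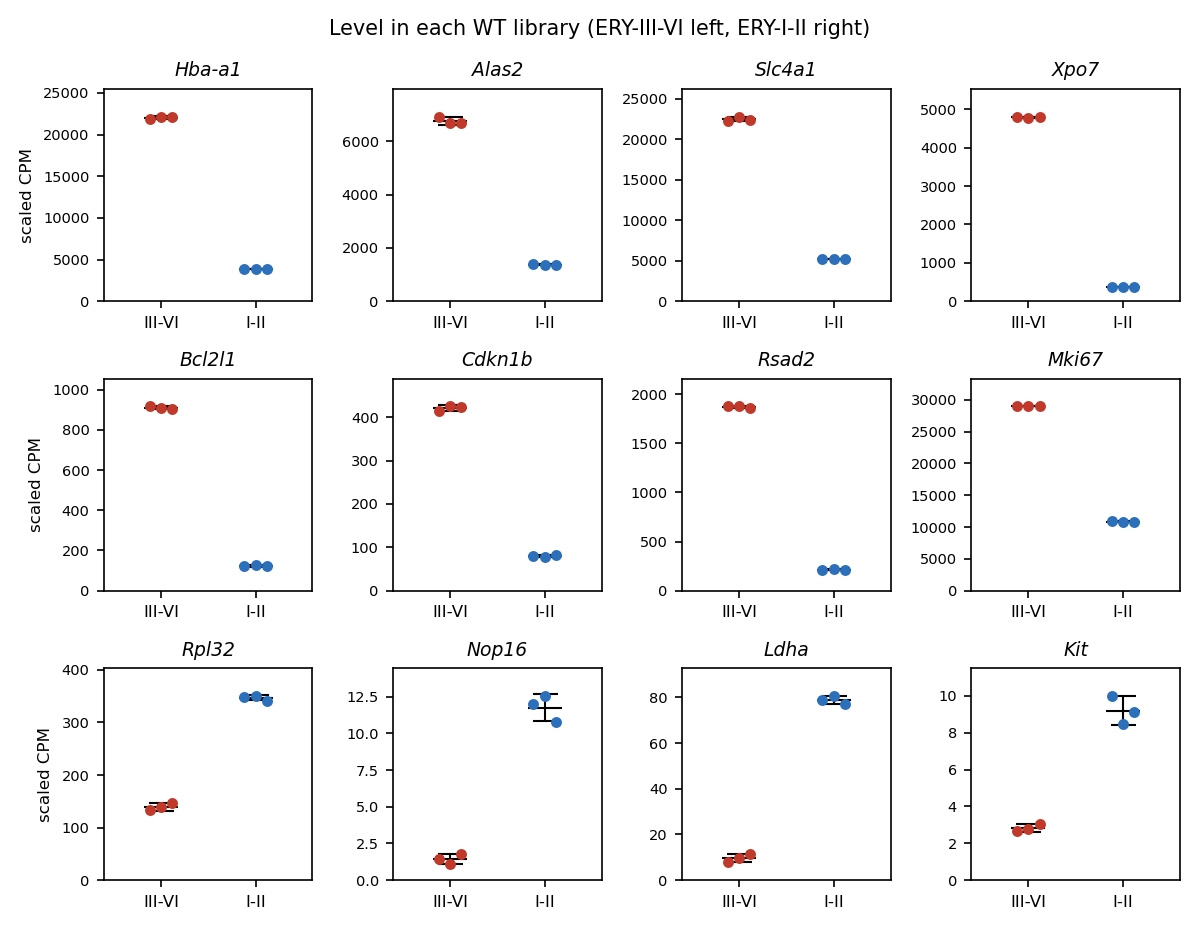
Level of selected genes in each of the 6 libraries (y axis, scaled CPM, linear from 0), with WT ERY-III-VI left of WT ERY-I-II, 1 panel a gene, 1 point a library, and the mean ± SD in black. The 3 points of a gate nearly coincide in most panels. The gates do not overlap in any of these selected genes, nor in 74.7% of all 9503 genes tested.

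The promoter of Alas2 is shown because it carries both letter patterns bound by the factors named above. In the 250 bases before the start of each gene in the RefSeq table (build GRCm38.p6), the GATA motif AGATAA was searched on both strands, and a CACCC motif as CCNCNCCC, the kind KLF1 binds. Of the 9503 genes tested, 7664 had a window. In the stretch below, the 150 bases up to the start at chrX:150547267-150547416, plus strand, 5′ to 3′ along the gene, capitals mark the GATA match (as its reverse complement) and the CACCC matches, some of which overlap one another, none the GATA match.
Alas2: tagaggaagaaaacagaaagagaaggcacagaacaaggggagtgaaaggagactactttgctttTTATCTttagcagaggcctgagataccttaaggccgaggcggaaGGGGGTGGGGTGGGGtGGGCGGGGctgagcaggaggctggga
The CACCC motif was in 12 of 17 windows of the heme list (70.6%), 68.5% of windows of genes higher beyond 2-fold, 57.7% of those lower beyond 2-fold and 63.5% of all tested. The GATA motif was in 1 of the 17 (5.88%), and in 5.66% of all tested. A match describes the letters and not binding.

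The red cell membrane and its skeleton rose almost as a whole. Of 37 genes tested, 32 rose and 4 fell, 25 and 2 of them beyond 2-fold, with a median log2 fold change of 1.25 that stayed above 0 relative to library totals (0.54, with 28 higher and 9 lower). Slc4a1 (band 3), the anion exchanger that anchors the skeleton, had 22296, 22791 and 22378 scaled CPM in WT ERY-III-VI and 5254, 5234 and 5215 in WT ERY-I-II. No library overlapped (log2 fold change 2.10 ± 0.014, edgeR adjusted p = 4.04e-44). Epb4.1 (protein 4.1), which ties spectrin to actin, had 6226, 6340.5 and 6318 scaled CPM in WT ERY-III-VI and 1307, 1302 and 1323 in WT ERY-I-II (log2 fold change 2.26 ± 0.018). Tmod1, which caps the skeleton's actin filaments, had 379, 394 and 407 scaled CPM in WT ERY-III-VI and 75.7, 80.8 and 90.4 in WT ERY-I-II (log2 fold change 2.25 ± 0.049). Sptb, the beta chain of spectrin, rose by 1.48 ± 0.015, and Ank1, which links spectrin to band 3, by 1.32. Glycophorin C (Gypc) rose by 1.502, the Kell antigen gene Kel by 1.62 and the Rhesus gene Rhd by 1.42.

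Cd44, an adhesion receptor whose loss from the surface marks erythroblast maturation in mouse, went the other way. It had 44.2, 40.3 and 39.3 scaled CPM in WT ERY-III-VI and 107, 103 and 107 in WT ERY-I-II (log2 fold change -1.35 ± 0.077, edgeR adjusted p = 6.77e-17). The 2 carbonic anhydrase genes split, with Car1 at -0.99 and Car2 at 1.25 on the log2 scale. Piezo1, the stretch-gated channel, was not called, with 159.8 ± 6.62 scaled CPM in WT ERY-III-VI and 161 ± 8.76 in WT ERY-I-II (SD, n = 3 each). In the summed setting 14 of the 37 rose, among them Tmod1, and 0 fell.

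Among 26 members of the membrane list with a promoter window, 7 (26.9%) held AGATAA, against 5.66% of all tested genes and 10.2% of 27025 RefSeq windows. The 3 matched members with the largest fold change were Epb4.2 (protein 4.2, log2 fold change 2.04), Kel and Mpp1 (a palmitoylated skeleton protein, 1.46). They are printed for the match, at chr2:121036878-121037127, minus strand, at chr6:41704326-41704475, minus strand and at chrX:75131017-75131166, minus strand (build GRCm38.p6, ending at the base before the start), with the match in capitals.
Epb4.2: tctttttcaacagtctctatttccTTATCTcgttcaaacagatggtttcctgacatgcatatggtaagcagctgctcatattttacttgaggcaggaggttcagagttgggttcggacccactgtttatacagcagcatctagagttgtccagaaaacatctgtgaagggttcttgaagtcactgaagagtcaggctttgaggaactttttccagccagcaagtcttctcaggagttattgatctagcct
Kel: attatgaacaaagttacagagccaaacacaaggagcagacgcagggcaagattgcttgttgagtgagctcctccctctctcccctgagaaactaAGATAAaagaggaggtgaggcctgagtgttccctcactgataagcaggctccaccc
Mpp1: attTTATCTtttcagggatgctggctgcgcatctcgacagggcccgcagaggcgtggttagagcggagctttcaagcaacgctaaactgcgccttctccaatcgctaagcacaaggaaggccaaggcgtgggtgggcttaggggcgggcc
The match lies far from the start in Epb4.2 and Mpp1 and nearer to it in Kel.

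The erythroid regulators rose unequally. Of 32 tested, 24 rose and 7 fell, 13 and 2 of them beyond 2-fold, with a median log2 fold change of 0.85, and relative to library totals 16 rose and 13 fell, with a median of 0.13. Gata1 itself moved little, with 325, 341 and 324 scaled CPM in WT ERY-III-VI and 217, 218 and 213 in WT ERY-I-II (log2 fold change 0.61 ± 0.037, edgeR adjusted p = 3.95e-16), and relative to library totals its sign reversed to -0.11. Klf1 changed by 0.86 ± 0.028, and Tal1, the partner of GATA1, by 1.37 ± 0.025. Other factors rose further. Foxo3, which drives late erythroid and autophagy genes, had 798, 808 and 815 scaled CPM in WT ERY-III-VI and 245, 237 and 237 in WT ERY-I-II (log2 fold change 1.75 ± 0.029). Mxd1, a MAX partner that opposes MYC, had 1138, 1103 and 1113 scaled CPM in WT ERY-III-VI and 206, 205 and 216 in WT ERY-I-II (log2 fold change 2.42 ± 0.03). Both were higher in every later library. Mxi1 of the same family changed by 1.82, E2f2, which slows cycling in mouse erythroblasts, by 1.72, Rb1 by 1.42 and Nfe2, an activator of globin genes, by 1.90. With the triplicates summed 11 of the 32 rose and 0 fell.

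Genes of the progenitor state were scarce in both gates and mostly lower in the later one. Of 25 listed only 7 passed the filter on low counts, so that the list is seen in part, and of these 2 rose and 4 fell, with 1 higher when WT ERY-III-VI replicate 2 or WT ERY-I-II replicate 2 or 3 was left out, and 0 higher and 5 lower relative to library totals. Myc had 9.74, 7.66 and 7.91 scaled CPM in WT ERY-III-VI and 37.6, 38.0 and 36.6 in WT ERY-I-II, without overlap (log2 fold change -2.13 ± 0.14, edgeR adjusted p = 4.71e-15). Kit, the stem cell factor receptor, had 2.67, 2.76 and 3.06 scaled CPM in WT ERY-III-VI and 10.01, 8.46 and 9.11 in WT ERY-I-II (log2 fold change -1.71 ± 0.26). Both were lower in every later library. Bmi1, a polycomb protein, changed by -2.02 and Myb, which holds progenitors in cycle, by -0.94. Over the 7 tested members the log2 fold changes ran from -2.13 to 1.5, so the highest member moved further from 0 than Myb. Beyond 2-fold 0 of them rose and 3 fell. Gata2 did not pass the filter. The summed setting called none of the 7.

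In erythropoietin signalling the receptor and its survival targets rose while the STAT5 genes fell. Epor had 241, 246 and 218 scaled CPM in WT ERY-III-VI and 91.8, 96.6 and 99.3 in WT ERY-I-II (log2 fold change 1.30 ± 0.053, edgeR adjusted p = 3.61e-21). Bcl2l1, which encodes BCL-XL, had 918, 909.9 and 905 scaled CPM in WT ERY-III-VI and 121, 128 and 122 in WT ERY-I-II (log2 fold change 2.88 ± 0.032). Pim1, a survival kinase, had 359, 362 and 378 scaled CPM in WT ERY-III-VI and 67.4, 68.3 and 64.4 in WT ERY-I-II (log2 fold change 2.45 ± 0.046). None of these 3 genes overlapped between gates. Stat5a had 7.47, 8.73 and 5.10 scaled CPM in WT ERY-III-VI and 35.5, 37.9 and 31.5 in WT ERY-I-II, lower in every later library (log2 fold change -2.25 ± 0.16), and Stat5b changed by -1.08. Over the 11 members tested 5 rose and 3 fell, with a median of 0.46 that turned to -0.26 relative to library totals, with 5 higher and 5 lower. The summed setting called 1 of the 11, Epor (adjusted p = 0.0238).

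Cell division genes rose relative to the median gene. Of 52 genes of mitosis and cytokinesis tested, 51 rose and 0 fell, 10 of them beyond 2-fold, with a median log2 fold change of 0.83, and relative to library totals 28 rose and 12 fell, with a median of 0.11. Mki67, the proliferation marker Ki-67, had 28942, 28992 and 28991 scaled CPM in WT ERY-III-VI and 10878, 10817 and 10717 in WT ERY-I-II. The later libraries were all higher (log2 fold change 1.42 ± 0.012, edgeR adjusted p = 5.19e-41). Cenpf of the kinetochore changed by 1.34, Ube2c, a ubiquitin carrier of mitotic exit, by 1.30, and Anln and Ect2 of the cleavage furrow by 1.25 and 1.08. Cdc20 and Plk1, further mitotic regulators, moved less (0.15 and 0.34), and both signs reverse relative to library totals. No member of the list was called in the summed setting.

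DNA replication genes stayed near the median gene. Of 49 tested, 25 rose and 16 fell, 1 beyond 2-fold, with a median of 0.091, which reversed to -0.63 relative to library totals, where 2 rose and 46 fell. The gene beyond 2-fold was Ccne2 (cyclin E2), with 282, 313 and 318 scaled CPM in WT ERY-III-VI and 117, 129 and 123 in WT ERY-I-II (log2 fold change 1.29 ± 0.048). Rrm2, which makes deoxynucleotides, changed by 0.97 ± 0.024, Clspn of the replication checkpoint by 0.66 ± 0.026 (with its sign reversed to -0.055 relative to library totals), and the helicase subunits Mcm2 and Mcm5 by 0.088 and -0.23, the first of these also reversing. Clustered histone genes, transcribed in S phase, all rose. Of 57 tested 57 were higher, 30 beyond 2-fold, with a median of 1.08 (0.36 relative to library totals, 48 higher and 2 lower). Hist1h1c, a linker histone, had 11336, 11022 and 11043 scaled CPM in WT ERY-III-VI and 4262, 4184 and 4133 in WT ERY-I-II (log2 fold change 1.41 ± 0.016). Histone genes are near-identical copies, and reads may be split among them. Of 11 replication-independent histone genes 9 rose, with H3f3a at 1.23, and their median of 0.69 turned to -0.022 relative to library totals.

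Inhibitors of the G1 phase rose and its kinases fell. Cdkn1b (p27), an inhibitor of cyclin-dependent kinases, had 413, 425 and 424 scaled CPM in WT ERY-III-VI and 79.0, 78.0 and 81.8 in WT ERY-I-II (log2 fold change 2.40 ± 0.042, edgeR adjusted p = 7.78e-32). Cdk6, a G1 kinase whose loss goes with terminal erythroid maturation, had 3.60, 5.82 and 5.87 scaled CPM in WT ERY-III-VI and 29.2, 34.2 and 31.9 in WT ERY-I-II (log2 fold change -2.69 ± 0.18, edgeR adjusted p = 2.64e-15). Neither gene overlapped between gates. The further inhibitors Cdkn2d and Cdkn2c changed by 2.67 and 1.25, the antiproliferative Btg2 by 1.95 and cyclin G2 (Ccng2) by 2.81, while Cdk4 changed by -1.65. Ccnd3, the cyclin that sets the number of late divisions in mouse, was nearly level, with 425 ± 14.7 scaled CPM in WT ERY-III-VI and 482 ± 6.41 in WT ERY-I-II (SD, n = 3 each; log2 fold change -0.18 ± 0.031). Of 25 members tested 17 rose and 5 fell (12 and 8 relative to library totals), and in the summed setting 8 rose, Cdkn1b, Cdkn2d and Btg2 among them, and 0 fell.

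Promoters of mitosis genes are printed because these genes moved together and share known motifs, the CHR (TTTGAA) bound by the MuvB complex and CCAAT bound by NF-Y. The CHR was in 16 of 45 windows of the mitosis list (35.6%), against 10.9% of all tested genes, and CCAAT in 32 of 45 (71.1%), against 38.4%. In the clustered histone list the shares were 45.1 and 84.3% of 51 windows, whose median GC content of 44% was below that of all tested genes, 60%. The members shown have the largest fold changes among those that held both motifs, Mki67 at chr7:135716380-135716529, minus strand, Ube2c at chr2:164769779-164769928, plus strand and Ect2 at chr3:27153879-27154028, minus strand, with both motifs in capitals on either strand (build GRCm38.p6).
Mki67: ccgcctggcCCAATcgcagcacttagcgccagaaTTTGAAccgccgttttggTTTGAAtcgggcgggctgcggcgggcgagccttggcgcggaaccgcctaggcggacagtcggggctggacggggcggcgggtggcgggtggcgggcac
Ube2c: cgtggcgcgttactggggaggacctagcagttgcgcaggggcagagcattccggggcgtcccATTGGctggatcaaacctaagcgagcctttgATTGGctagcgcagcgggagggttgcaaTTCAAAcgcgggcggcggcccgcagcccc
Ect2: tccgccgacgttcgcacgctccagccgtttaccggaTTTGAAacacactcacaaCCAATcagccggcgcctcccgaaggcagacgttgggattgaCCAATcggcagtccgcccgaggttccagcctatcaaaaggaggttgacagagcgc
In each, at least 1 CCAAT and 1 CHR match lie within the stretch, and the matches do not overlap.

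Autophagy genes rose in the main relative to the median gene, and apoptosis regulators split. Bnip3l (NIX), the receptor by which erythroid cells clear mitochondria, had 876, 862 and 825 scaled CPM in WT ERY-III-VI and 196, 209 and 208 in WT ERY-I-II (log2 fold change 2.07 ± 0.032, edgeR adjusted p = 2.69e-33). Ulk1, the kinase that starts autophagy, had 296, 295 and 281 scaled CPM in WT ERY-III-VI and 62.5, 64.6 and 65.5 in WT ERY-I-II (log2 fold change 2.18 ± 0.05). The later libraries were higher for both. The autophagy receptor genes Calcoco1, Sqstm1, Nbr1 and Optn changed by 2.92, 1.34, 1.40 and 1.33, and the conjugation genes Atg12 and Map1lc3b by 1.46 and 1.59, whereas the protease gene Ctsl changed by -2.60 and Atg3 and Atg5 by -0.72 and -0.48. Of 40 members 26 rose and 8 fell (18 and 2 beyond 2-fold), with a median of 0.78, against 19 higher and 15 lower with a median of 0.060 relative to library totals, and 6 rose in the summed setting. Among 17 apoptosis regulators 7 rose and 8 fell, with a median of -0.12 (4 higher and 11 lower relative to library totals). Over all genes tested 35.3% rose and 38.1% fell, so these members divided much as all genes did. The protective Bcl2l1 (above), Mcl1 (0.77) and Xiap (0.99) rose, and the death effectors Bid (-1.43) and Bak1 (-1.06) fell, while the killer gene Bbc3 (PUMA) rose (1.95). None of the 17 was called in the summed setting.

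The ubiquitin system of late erythroblasts rose broadly, with 34 of 43 tested members higher and 5 lower (22 and 2 beyond 2-fold) and a median of 1.15, and 27 higher and 14 lower relative to library totals. Ube2o, the enzyme that removes ribosomal and other proteins from reticulocytes, had 2225, 2249 and 2312 scaled CPM in WT ERY-III-VI and 380.4, 388 and 388 in WT ERY-I-II (log2 fold change 2.55 ± 0.024, edgeR adjusted p = 2.88e-39). Trim58, a ligase linked to nuclear expulsion, had 371, 394 and 389 scaled CPM in WT ERY-III-VI and 68.1, 62.0 and 58.4 in WT ERY-I-II (log2 fold change 2.61 ± 0.05). Ube2h, a carrier enzyme, had 328, 308 and 328 scaled CPM in WT ERY-III-VI and 55.4, 52.2 and 46.4 in WT ERY-I-II (log2 fold change 2.64 ± 0.055). None overlapped between gates. Rnf123, Fbxo30 and Ube2l6 changed by 1.60, 2.52 and 2.19. In the summed setting 11 of the 43 rose, Trim58 among them at an adjusted p of 0.00454, and 0 fell.

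Genes of enucleation and nuclear condensation were mixed, with 22 of 36 higher and 10 lower, 6 and 2 beyond 2-fold, and a median of 0.39 that turned to -0.32 relative to library totals, with 7 higher and 21 lower. Besides Xpo7, Plek2, which organises the actin skeleton of erythroblasts, rose by 2.64 and the formin Diap3 by 1.19. Kat2a, a histone acetyltransferase, had 4.27, 3.22 and 2.81 scaled CPM in WT ERY-III-VI and 21.5, 24.5 and 20.6 in WT ERY-I-II, lower in every later library (log2 fold change -2.65 ± 0.20). The 2 B-type lamins went apart, Lmnb1 at 0.85 and Lmnb2 at -2.04. In the summed setting 2 of the 36 rose, Xpo7 among them at an adjusted p of 0.0122, and 0 fell. Of 47 nuclear pore and transport receptor genes 19 rose and 14 fell, against 35.3% and 38.1% of all genes tested. The median was -0.0049, a sign that changed with the scaling, and relative to library totals 3 rose and 41 fell. Only Xpo7 and Kpna1 (1.13) among them rose beyond 2-fold, and 0 fell beyond it.

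Ribosome genes fell nearly as a block. Of 73 ribosomal protein genes 72 fell and 0 rose, 9 beyond 2-fold, with a median of -0.83 and the lowest value for Rpl32. Rpl32 had 133, 138 and 147 scaled CPM in WT ERY-III-VI and 348, 351 and 342 in WT ERY-I-II. The gates did not overlap (log2 fold change -1.33 ± 0.042, edgeR adjusted p = 2.99e-24). Ribosomal protein genes have many processed copies in the genome, and part of their reads may have been counted elsewhere or dropped. Ribosome biogenesis genes fell further, with 53 of 56 lower, 36 beyond 2-fold, and a median of -1.76. Ncl (nucleolin), the most abundant of them here, had 1058, 1068 and 1174 scaled CPM in WT ERY-III-VI and 2142, 2087 and 2162 in WT ERY-I-II (log2 fold change -0.96 ± 0.027, edgeR adjusted p = 1.24e-25). Nop16 of the nucleolus had 1.47, 1.07 and 1.79 scaled CPM in WT ERY-III-VI and 11.97, 12.6 and 10.7 in WT ERY-I-II (log2 fold change -3.06 ± 0.28), and Polr1b, a large subunit of RNA polymerase I, changed by -2.80. Every later library was lower for each of these genes. The 1 member that rose was Ubtf (0.71), an activator of ribosomal DNA, which turned negative relative to library totals (56 of 56 below 0). In the summed setting 0 of the 73 ribosomal protein genes and 1 of the 56 biogenesis genes were called, which was lower.

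Translation factors fell in the main, with 24 of 38 lower and 9 higher and a median of -0.47, and 32 lower and 4 higher relative to library totals. Eif2ak1 (HRI), the kinase that halts globin translation when heme is short, was an exception, with 1512, 1502 and 1495 scaled CPM in WT ERY-III-VI and 427, 409 and 434 in WT ERY-I-II (log2 fold change 1.83 ± 0.026). Pabpc1, which binds poly(A) tails, rose by 1.69 and Eif5 by 1.80, while the elongation factor Eef1a1 changed by -1.06 and Eif4ebp1, a brake on cap binding, by -1.92. No translation factor was called in the summed setting.

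Mitochondrial genes fell as well. Of 47 genes of the mitochondrial ribosome and mitochondrial biogenesis 40 fell and 2 rose, 14 and 0 beyond 2-fold, with a median of -1.11, against 41 of 50 lower, 1 beyond 2-fold, and a median of -0.48 for nuclear-encoded respiratory chain subunits. Mrpl12 had 8.41, 11.95 and 6.89 scaled CPM in WT ERY-III-VI and 49.8, 49.7 and 49.3 in WT ERY-I-II (log2 fold change -2.41 ± 0.14, edgeR adjusted p = 9.75e-17), and Polrmt, the mitochondrial RNA polymerase, changed by -2.99 ± 0.28. Hspd1, the mitochondrial chaperonin, had 34.7, 35.9 and 30.4 scaled CPM in WT ERY-III-VI and 163, 168 and 165 in WT ERY-I-II (log2 fold change -2.28 ± 0.071). All 3 were lower in every later library. Of the respiratory chain only Ndufb5 of complex I fell beyond 2-fold (-1.40), and Atp5b of the ATP synthase changed by -0.18. In the TCA cycle 20 of 27 fell and 3 rose, with a median of -0.61 (25 and 1 relative to library totals). Suclg1 and Idh2 changed by -1.74 and -1.55, and Pcx, which carboxylates pyruvate, by 1.40. The summed setting called none of these 3 lists' members.

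Most glycolysis genes fell while Bpgm rose. Bpgm, which makes bisphosphoglycerate, the ligand that loosens oxygen from hemoglobin, had 1713, 1684 and 1746 scaled CPM in WT ERY-III-VI and 302, 298 and 306 in WT ERY-I-II (log2 fold change 2.51 ± 0.026, edgeR adjusted p = 2.65e-38). Ldha, lactate dehydrogenase A, had 7.87, 9.81 and 11.5 scaled CPM in WT ERY-III-VI and 78.8, 80.8 and 77.3 in WT ERY-I-II (log2 fold change -3.07 ± 0.12). The genes moved in opposite directions, each without overlap. The glycolysis enzymes Tpi1, Gpi1, Gapdh and Pklr changed by -1.96, -1.63, -1.18 and -1.69, while the monocarboxylate carrier Slc16a1 changed by 1.52 and Hk1, the red cell hexokinase, by 0.53, with a reversed sign relative to library totals for Hk1. Of 23 members 14 fell and 7 rose (15 and 4 relative to library totals), with a median of -0.72, and 3 rose in the summed setting.

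Most genes that use glutamine or glutamate fell, while the gene that makes glutamine rose. Glul, glutamine synthetase, had 195, 214 and 203 scaled CPM in WT ERY-III-VI and 88.2, 81.4 and 88.2 in WT ERY-I-II. All later libraries were higher (log2 fold change 1.25 ± 0.055, edgeR adjusted p = 4.56e-20). Cad, which opens pyrimidine synthesis with glutamine nitrogen, had 24.8, 27.6 and 30.1 scaled CPM in WT ERY-III-VI and 167, 151 and 154 in WT ERY-I-II (log2 fold change -2.53 ± 0.079). Ppat of purine synthesis changed by -1.22, Aldh18a1, which turns glutamate towards proline, by -1.84, Psat1 of serine synthesis by -2.07 and Asns, asparagine synthetase, by -0.89. Both subunits of the enzyme that turns glutamate into glutathione's precursor rose, Gclc by 0.87 and Gclm by 1.38. Of 26 members 17 fell and 5 rose (22 and 3 relative to library totals), with a median of -1.04, and none was called in the summed setting.

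Interferon response genes rose, and the labels name no treatment. Of 30 listed, 20 passed the low-count filter, of which 15 rose, 11 beyond 2-fold, and 1 fell, with a median log2 fold change of 1.39 (0.68 relative to library totals, with 12 higher and 3 lower). Rsad2 (viperin) had 1874, 1876 and 1861 scaled CPM in WT ERY-III-VI and 207, 218 and 213 in WT ERY-I-II (log2 fold change 3.13 ± 0.027, edgeR adjusted p = 1.12e-40). Isg15, a ubiquitin-like modifier, had 77.5, 82.3 and 85.7 scaled CPM in WT ERY-III-VI and 9.04, 10.4 and 11.4 in WT ERY-I-II (log2 fold change 2.98 ± 0.11). Both were higher in every later library. Ifit1 had 22.4, 20.1 and 26.8 scaled CPM in WT ERY-III-VI and 1.71, 1.82 and 1.87 in WT ERY-I-II, Irf7 changed by 1.91, Oas3 by 2.02 and Ube2l6, the carrier enzyme for ISG15, by 2.19. Ifit2 was the 1 that fell (-0.31). The summed setting called 5, all higher, with Rsad2 at an adjusted p of 0.00908 and Isg15 at 0.00101.

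The promoters of 3 of these genes are shown because they carry the interferon-stimulated response element, searched on both strands as GAAA and again GAAA with any 2 bases between them. It was in 7 of 16 windows of the list (43.8%), 3.47% of those of genes higher beyond 2-fold, 2.08% of those lower beyond 2-fold, 2.48% of all tested and 3.05% of RefSeq windows. The members with the largest fold change among the 7 are at chr19:34640739-34640888, plus strand, at chr12:26456453-26456602, minus strand and at chr4:156200819-156200968, minus strand (build GRCm38.p6), with matches in capitals.
Ifit1: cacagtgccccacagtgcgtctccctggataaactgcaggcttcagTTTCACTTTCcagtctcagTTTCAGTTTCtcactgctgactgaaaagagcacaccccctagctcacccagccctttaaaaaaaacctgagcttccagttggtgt
Rsad2: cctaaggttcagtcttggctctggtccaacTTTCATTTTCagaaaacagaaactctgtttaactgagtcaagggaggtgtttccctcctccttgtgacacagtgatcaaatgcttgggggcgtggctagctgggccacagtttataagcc
Isg15: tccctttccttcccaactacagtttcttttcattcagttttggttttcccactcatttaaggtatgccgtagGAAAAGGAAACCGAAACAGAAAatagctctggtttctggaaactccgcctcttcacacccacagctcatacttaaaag
Ifit1 holds separate matches, and in Isg15 matches overlap into 1 run.

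Markers of neutrophils also rose, at low levels, and those of macrophages rose relative to the median gene. All 14 neutrophil markers tested (of 17 in the table) rose, 13 beyond 2-fold, and none of the 17 was at 0 in either gate. Their summed level was 356 to 366 scaled CPM in WT ERY-III-VI, against 93.7 to 100 in WT ERY-I-II. Mpo, a granule enzyme of neutrophil precursors, had 74.6, 82.7 and 84.4 scaled CPM in WT ERY-III-VI and 15.1, 16.8 and 13.0 in WT ERY-I-II (log2 fold change 2.41 ± 0.11, edgeR adjusted p = 6.13e-20). Of 12 monocyte and macrophage markers tested (of 23) 11 rose and 0 fell, with sums of 232 to 250 in WT ERY-III-VI and 129 to 145 in WT ERY-I-II, and Cd14 was at 0 in all WT ERY-I-II libraries. In CPM of library totals the macrophage sums overlapped, at 181 to 195 in WT ERY-III-VI and 165 to 187 in WT ERY-I-II, and 7 of the 12 rose and 1 fell. Sums of B lineage markers were 17.3 to 18.3 in WT ERY-III-VI and 7.69 to 11 in WT ERY-I-II, and of T and NK markers 10.5 to 15.6 in WT ERY-III-VI and 5.74 to 7.11 in WT ERY-I-II, with Cd3e, Cd2, Cd5, Gzma, Klrb1c, Klrd1 and Prf1 at 0 in all 6 libraries. Megakaryocyte and platelet markers summed to 144 to 155 in WT ERY-III-VI and 112 to 125 in WT ERY-I-II, and mast cell, basophil and eosinophil markers to 2.4 to 3.57 in WT ERY-III-VI and 5.25 to 8.18 in WT ERY-I-II. Stromal markers summed to 1.23 to 3.32 in WT ERY-III-VI and 1.17 to 2.77 in WT ERY-I-II. The part of these cells in the changes of interferon, autophagy and other immune-linked genes was not tested. No marker of another cell type was called in the summed setting.

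Set among the 5 WT gates, in CPM of library totals, the step took genes to different points of their course. Of the 911 genes higher beyond 2-fold, 506 had their highest mean in ERY-III-VI itself, 357 in ERY-V-VI and 48 in BFU-E, the earliest progenitor gate. Of the 936 lower beyond 2-fold, 516 were highest in BFU-E, 397 in CFU-E and 23 in ERY-I-II. Of all 9503 genes tested, 4037 were highest in BFU-E and 2517 in CFU-E cells, then 1278 in the ERY-I-II gate, 1147 in ERY-III-VI and 524 in ERY-V-VI, and a gene chosen for its change cannot be highest in the gate where it is lower. All 6 globin genes were highest in ERY-V-VI, and Hba-a1 averaged 4.22 CPM in BFU-E and 11.8 in CFU-E cells, then 4940.4 in the ERY-I-II gate, 17189 in ERY-III-VI and 70887 in ERY-V-VI. Membrane genes peaked in ERY-III-VI in 22 of 37 cases, clustered histone genes in 52 of 57, and mitosis genes in 29 of 52, with 20 more in ERY-I-II. DNA replication genes peaked 1 gate earlier on this scale, in ERY-I-II for 44 of 49. With TMM 25 of the 49 were called higher in ERY-III-VI than in ERY-I-II and 16 lower, so that peak depends on the scaling. Ubiquitin genes peaked in ERY-V-VI in 22 of 43 cases. The 73 ribosomal protein genes summed to 52020, 45150, 35650, 12230 and 4166 CPM over the same gates, and 68 of them were highest in BFU-E. Xpo7 averaged 45.4, 22.2, 473, 3741 and 7069 CPM over the 5 gates, and Mki67 2503, 3393, 13849, 22604 and 9595. The neutrophil marker sum, 278 to 285 CPM in ERY-III-VI and 120 to 128 in ERY-I-II, was 675 to 708 in ERY-V-VI, and the interferon list sum 12600 to 12900 there. Neighbouring steps share libraries with this one, so the levels are given without a test.

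**Figure D4:**
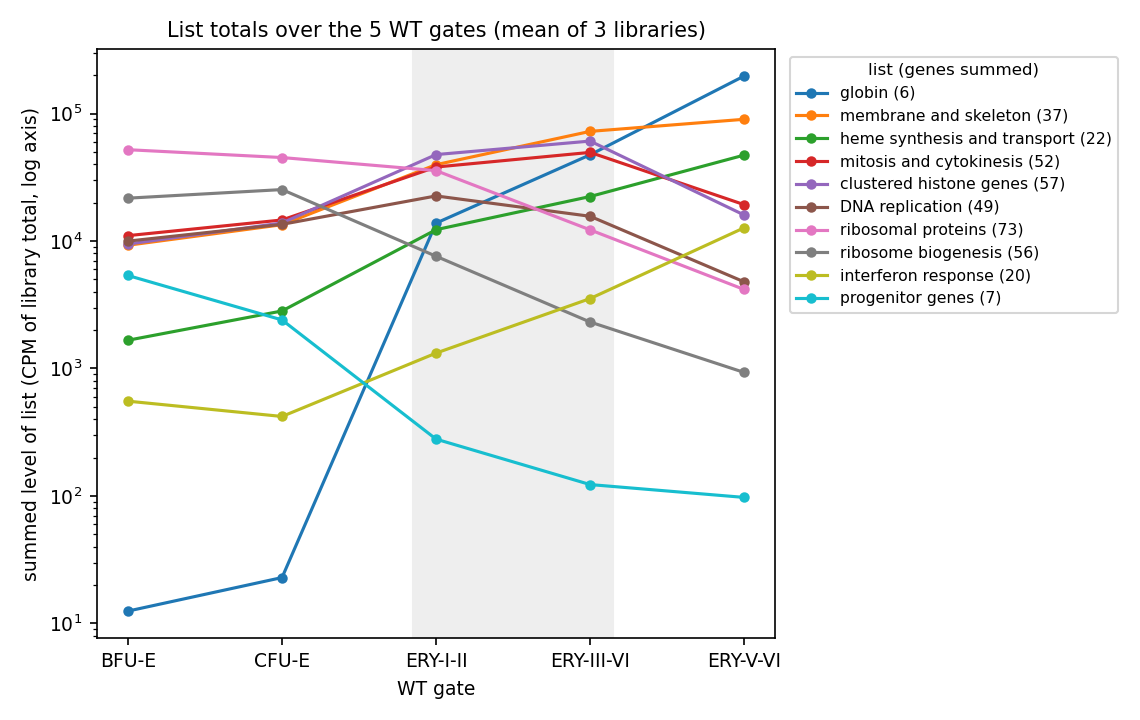
Summed level of gene lists (CPM of library totals, log axis) over the 5 WT gates in order of maturation, BFU-E to ERY-V-VI, 1 line a list. Globin climbs at each gate from CFU-E on, ribosomal protein genes decline at each gate, ribosome biogenesis genes are highest in CFU-E (25320, against 21680 in BFU-E) and lower at each gate after it, and mitosis and histone genes crest at ERY-III-VI before falling in ERY-V-VI.

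The stage set gave a comparison in libraries other than those of the WT step, part of which had also set the spread in the summed setting. It took the mean of ERY-III and ERY-IV (4 libraries each) against the mean of ERY-I (7) and ERY-II (4). By its numbers the label ERY-III-VI would also span ERY-V and ERY-VI, separate gates of the stage set that this comparison left out. The source name PolyE/OrthoE does not name them. There 3907 of 10376 genes were called (37.7%), 1985 higher (19.1%) and 1922 lower (18.5%), and relative to library totals 346 were higher and 6315 lower. The fit held no term for the replicate number, and with that number as a block 5531 genes were called. Of 1804 genes changed beyond 2-fold in the WT step and tested there, 1744 (96.7%) had the same sign, against 84% of all 9249 genes tested in both. The call was in the same direction for 1403 (77.8% of the 1804, and 37.4% of 3754 calls in the stage set), and opposite for 2. Over the 9249 genes the log2 fold changes had a Pearson r of 0.75 and a Spearman rho of 0.82, given as a description across genes, which are not independent replicates. Shared were the rises of Xpo7 (2.46, edgeR adjusted p = 9.89e-05), Slc4a1 (1.62), Cdkn1b (1.60) and Rsad2 (2.08) and the falls of Cdk6 (-3.17), Nop16 (-3.75) and Cad (-2.29), as log2 differences in the stage set.

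The sets did not match everywhere. Of 39 lists with at least 5 members tested in both sets, 9 had medians of opposite sign, among them the respiratory chain, proteasome, p53 target, noncoding RNA and neutrophil marker lists. Mki67 and Cenpf were not called in the stage set (0.33 and 0.11), where 8 of 52 mitosis genes rose and 0 fell. No ribosomal protein gene of 73 tested was called there by edgeR (median -0.22, 4 lower and 0 higher at an unadjusted p under 0.05). Of 50 respiratory chain genes 3 fell and 0 rose, with a median of 0.11, while 23 rose and 3 fell with the replicate number as a block. Neutrophil markers had a median of -3.24 there, with Mpo at -3.43 (edgeR adjusted p = 0.0625), and their sum in single ERY-I libraries ran from 1.23 to 16100 CPM. It ran from 2.37 to 2290 CPM in ERY-II, from 0.88 to 1320 in ERY-III and from 2.55 to 200 in ERY-IV. Libraries within each of these stage gates thus differed greatly in these markers. With ERY-I replicates 4 to 7 only, 3187 genes were called, and with ERY-II alone as the earlier gate edgeR called 0 of 7864 (615 at an unadjusted p under 0.05). That last fit held no term for the replicate number, and none with it was run, so the 0 calls do not show an absence of change. The main stage fit, also without that term, had 48.8% of genes at an unadjusted p under 0.05, against 7.82% with ERY-II alone. In the fits run without that term, stage calls were thus found only where ERY-I was in the earlier gate. Over 7615 genes WT ERY-III-VI levels correlated most with stage ERY-III (rho 0.96), then ERY-II (0.95), ERY-IV (0.93) and ERY-I (0.87), and WT ERY-I-II with ERY-I (0.95) more than with ERY-III (0.85) or ERY-II (0.84). Globin shares were nonetheless far lower than in the stage set, 4.74% in WT ERY-III-VI, against means of 28.9, 23.9 and 32.6% in stage ERY-II, ERY-III and ERY-IV, and 4.03% in ERY-I. Counts of Hbb-b1 over those of Hba-a1 came to 1.2 in WT ERY-III-VI and 1.26 in WT ERY-I-II, against 5.3, 5.21 and 5.59 in stage ERY-II, ERY-III and ERY-IV.

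**Figure D5:**
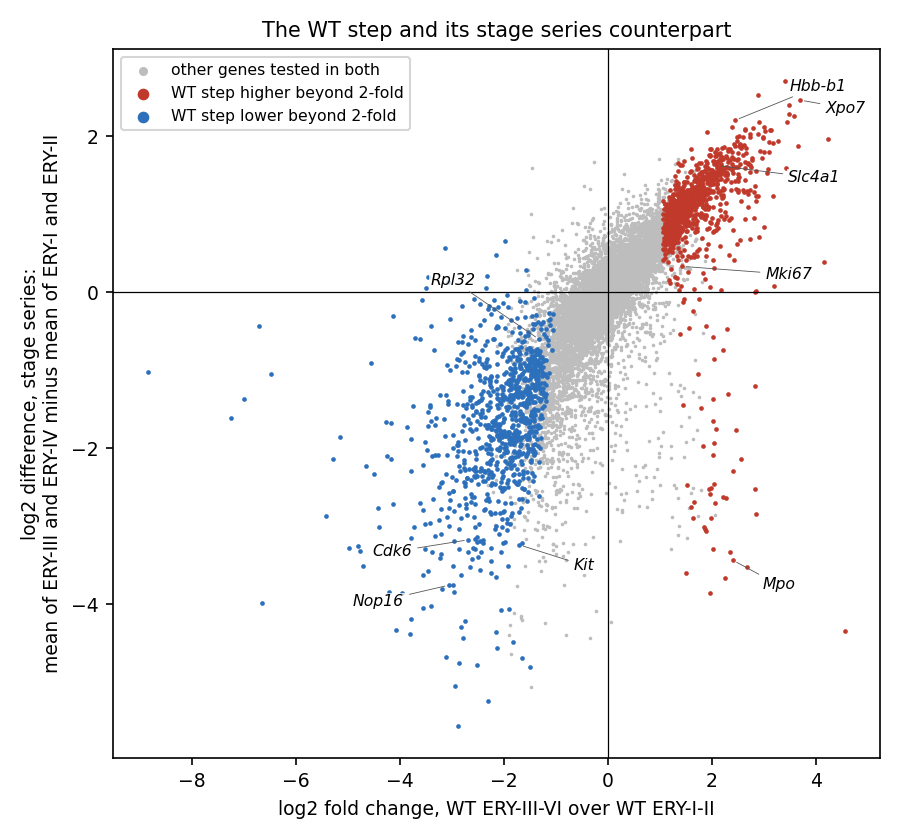
Log2 fold change of the WT step (x axis) against the log2 difference in the stage set, mean of ERY-III and ERY-IV minus mean of ERY-I and ERY-II (y axis), 1 point for each of 9249 genes tested in both. Genes changed beyond 2-fold in the WT step are red (higher) or blue (lower), and 1744 of 1804 lie in the quadrants of equal sign, while neutrophil genes such as Mpo lie at the lower right.

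Glul, described above, had 17, 18.1 and 22.5 CPM of library totals in GS-KO ERY-III-VI and 16.6, 12.8 and 15.1 in GS-KO ERY-I-II, against 152, 167 and 159 in WT ERY-III-VI and 113, 104 and 113 in WT ERY-I-II, so every GS-KO library was below every WT one, though the labels do not name the gene removed. The step was smaller in GS-KO cells for most of the genes that changed in WT. Of 10494 genes tested for a difference between the steps, 4708 (44.9%) were called, 1675 (16%) higher and 3033 (28.9%) lower in GS-KO, a balance that turned to 4195 higher and 999 lower relative to library totals. Among 1835 genes changed beyond 2-fold in the WT step, 1605 were called, and all 1605 against the WT direction, with a median absolute log2 fold change of 0.69 in GS-KO and 1.82 in WT, although 1734 (94.5%) kept their sign. Of these 1835 genes, 1576 were called relative to library totals, again all against the WT direction. These genes were chosen by their WT change, and the test shares the WT libraries with it. Xpo7 had 3157, 3268 and 3187 CPM of library totals in GS-KO ERY-III-VI and 1506, 1545 and 1576 in GS-KO ERY-I-II, against 3755, 3722 and 3745 in WT ERY-III-VI and 470.4, 471.8 and 476.8 in WT ERY-I-II. The GS-KO libraries were thus lower than WT in the later gate and higher in the earlier one (difference of steps -2.40 ± 0.032 on the log2 scale, edgeR adjusted p = 9.44e-71).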

How the data were processed

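Counts of reads per gene were deposited by the authors as 2 tables, raw and not normalised, 1 for the knockout set and 1 for the stage set. Reads were aligned with STAR 2.5.2b to mm10 and counted with HTSeq, per the submitters' processing notes. No source used here gives the gene annotation or the strand setting of the counting, so reads of overlapping and antisense genes may not be told apart. Libraries were made from total RNA with a stranded SMARTer kit for low input (Pico Input), per the labels' protocols.

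Both gates of the WT step (3 libraries each) were fitted together in edgeR 4.0.16 under R 4.3.3. Genes passed filterByExpr (minimum count 10, minimum total 15), libraries were scaled with TMM, and the quasi-likelihood F test was used with Benjamini-Hochberg adjustment over all genes tested, at 0.05. Changes beyond 2-fold were tested with glmTreat at a log2 change of 1. Scaled CPM are counts per 1000000 of library size times TMM factor, and values across gates and genotypes are CPM of library totals. The GS-KO difference is the genotype by step term of a fit over 12 libraries, and the stage comparison a contrast over 19. Neither held a term for the replicate number unless a replicate block is named. Only the fit of the WT step was tried on simulated data, with as many rises as falls in a minority of genes. A change of most genes, as in these libraries, was not simulated, so the scaling was not tested by it. Alternatives were DESeq2 1.42.0, limma 3.58.1 voom with quality weights, other scalings and filters, left-out libraries and a replicate block. The summed setting pooled each triplicate and took each gene's dispersion from stage ERY-II, ERY-III and ERY-IV, with a likelihood ratio test. That dispersion was fitted without a term for the replicate number. Same-numbered libraries of the 2 gates did not deviate together (correlations of -0.021, 0.0084 and -0.0012), so the numbers were not taken to pair them.

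Named genes were landmarks, the 12 highest and 12 lowest called log2 fold changes beyond 2-fold with at least 10 scaled CPM and no overlap, the 3 largest called changes of each list with at least 5 scaled CPM, and the 6 strongest GS-KO differences with at least 10 CPM. Other members given by value were chosen after their values were seen, for their known roles, and some named genes are not reported here. The gene lists and comparisons were chosen with earlier results of these data known. Of 24059 symbols 22548 matched a RefSeq symbol and 1352 only a synonym, and exon lengths were found for 9447 of the 9503 genes tested.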

Additional observations from a re-analysis of the deposited data

Results flagged for a closer look

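The step differed between GS-KO and WT cells in the 6 genes with the smallest adjusted p of the genotype by step term, each tested with edgeR and each moving less in GS-KO cells. The values are the GS-KO step minus the WT step on the log2 scale, and levels are mean CPM of library totals (n = 3 each). For Xpo7 the difference was -2.40 (-1.93 without TMM). For Tmcc2 it was -2.34 (-1.87 without TMM), with 2511 in GS-KO ERY-III-VI and 1341 in GS-KO ERY-I-II, against 3089 in WT ERY-III-VI and 452.9 in WT ERY-I-II. For Slc4a1 it was -1.27 (-0.79 without TMM), with 14220 in GS-KO ERY-III-VI and 9423 in GS-KO ERY-I-II, against 17540 in WT ERY-III-VI and 6710 in WT ERY-I-II. For the globin genes Hbb-b1 and Hba-a1 it was -1.19 and -1.32 (-0.72 and -0.84 without TMM). Hbb-b1 averaged 25780 in GS-KO ERY-III-VI and 12760 in GS-KO ERY-I-II, against 20670 in WT ERY-III-VI and 6214 in WT ERY-I-II, so both GS-KO gates lay above their WT counterparts. For the interferon gene Rsad2 it was -1.96 (-1.49 without TMM), with 1901 in GS-KO ERY-III-VI and 997.3 in GS-KO ERY-I-II, against 1459 in WT ERY-III-VI and 272.8 in WT ERY-I-II. All 3 libraries of each gate are in these means, and no cause was tested.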

How the results depend on the processing

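Directions and calls of the 143 named genes were unchanged under DESeq2, limma-voom, DESeq2 size factors in edgeR, no low-count filter, all 30 libraries in 1 fit and each left-out library. Under library totals 139 held, Lck lost its call, and Gata1 (-0.11), Clspn (-0.055) and Gp9 (-0.077) reversed. Apart from the landmarks and the GS-KO differences, the 143 were picked among called genes of these libraries for the size of their change. Their holding therefore does not stand for all genes. In place of 3357 higher and 3616 lower genes, library totals gave 1363 and 6609 (276 and 2965 beyond 2-fold), and the triplicates summed, a setting added after seeing the data, 338 and 4 (20 and 0 beyond 2-fold). Leaving out 1 library gave 3182 to 3368 higher and 3338 to 3570 lower (837 to 902 and 805 to 940 beyond 2-fold), and a globin share difference of 3.35 to 3.38 points. For the difference between GS-KO and WT steps, library totals gave 4195 higher and 999 lower in GS-KO, no low-count filter 1909 lower, and left-out libraries 1524 to 2146 higher and 2112 to 3048 lower. The stage comparison gave 346 higher and 6315 lower under library totals, and 0 and 0 with ERY-II only, for which no replicate block was fitted. Medians that turned negative under library totals were those of iron (-0.26), erythropoietin-STAT5 (-0.26), DNA replication (-0.63), enucleation (-0.32), replication-independent histones (-0.022), amino acid transporters (-0.086), antioxidant (-0.32), integrated stress response (-0.46), chromatin regulator (-0.47), glucocorticoid, hypoxia and immediate early (-0.19) and megakaryocyte genes (-0.34). The nuclear pore median turned positive with DESeq2 size factors in edgeR (0.029), with DESeq2 (0.030), in the fit of 30 libraries (0.017) and without 5 of the 6 libraries in turn (-0.0017 to 0.019 over all 6). The p53 target median turned positive under the filter at 5 CPM (0.51) and without WT ERY-III-VI replicate 2 (-0.278 to 0.070 over the 6 left-out libraries). The cause of these changes was not tested.

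With the replicate number as a block, 3298 genes rose and 3516 fell (872 and 892 beyond 2-fold), the nuclear pore median turned positive (0.0022), the GS-KO difference was 1613 higher and 2964 lower, the stage comparison 2674 and 2857, and no named gene changed its call in the WT step. The numbers did not pair the WT libraries. In GS-KO the same-numbered libraries of the 2 gates had correlations of deviations of -0.0018 to 0.0182. In the stage set 20 of 24 same-numbered pairs of libraries had correlations over 0.1, with a median of 0.28, against -0.0964 for 108 pairs of different number. The values below 0, down to -0.635, were all of ERY-I replicate 3. Among ERY-II, ERY-III and ERY-IV every same-numbered pair was above 0 (0.0615 to 0.696). There replicates 1 and 2 deviated together, and against replicates 3 and 4. The main stage fit held no replicate term, so its spread includes these shared differences, whose source was not tested. Under the block Mki67 and Cenpf were not called in the stage set either, while Mpo was (-3.94, edgeR adjusted p = 0.000864), and there 34 of 52 mitosis genes rose and 0 fell, 5 of 73 ribosomal protein genes rose and 4 fell, 23 of 50 respiratory chain genes rose and 3 fell, and 14 of 14 neutrophil markers fell.

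Depth limited the scarce genes, whose fitted values depend on the prior count where a gate holds no more than 3 counts. Whether the spread within a gate is biological or technical cannot be told apart, and neither can fractions of cells, RNA per cell and transcription.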

Other observations

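The counts of each group are read beside those over all genes tested, of which 35.3% rose and 38.1% fell. Of 44 chromatin regulators 25 rose and 13 fell, with a median log2 fold change of 0.25 (-0.47 relative to library totals, with 11 higher and 30 lower). Ezh1, a polycomb methyltransferase, changed by 2.46, the demethylase gene Kdm7a by 2.17 and the DNA hydroxylase gene Tet2 by -2.39. Of 34 glutathione and antioxidant genes 19 rose and 12 fell, and the median of 0.39 turned to -0.32 relative to library totals (11 higher and 19 lower), with catalase (Cat) at 2.35 and the glutathione peroxidase Gpx1 at 1.69. Among 19 carriers of amino acids 12 rose and 4 fell, with a median of 0.63 (-0.086 relative to library totals, with 8 higher and 9 lower). The glycine carrier Slc6a9 changed by 2.03 and the leucine carrier Slc7a5 by 1.85, and the glutamine carrier Slc38a1 by -2.04. Of 17 genes of the integrated stress response 9 rose and 6 fell, with Ppp1r15a, which reverses the translation block, at 2.54 and Atf4 at 1.01, and the median of 0.25 turned to -0.46 relative to library totals (5 higher and 7 lower). Of 16 glucocorticoid, hypoxia and immediate early genes 8 rose and 4 fell (5 and 7 relative to library totals), with Klf6 at 1.83 and Dusp1 at 1.53.

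Chaperones fell in the main. Of 32 heat shock genes 21 fell and 6 rose (26 and 4 relative to library totals), with a median of -0.63, Hspa9 of the mitochondrion at -2.07 and Hsp90ab1 at -1.92. Of 38 proteasome genes 19 fell and 4 rose (34 and 1 relative to library totals), with a median of -0.17, and Psme3, an activator of the proteasome, was the member that rose beyond 2-fold (1.92). Of 46 splicing genes 22 fell and 16 rose, shares near those over all genes, with a median of -0.087, against 41 lower and 2 higher with a median of -0.80 relative to library totals, with Rbm38, an erythroid splicing regulator, at 2.16 and Prpf19 at -1.67. Of 16 p53 targets 7 rose and 6 fell (5 and 9 relative to library totals), with Trp53inp1 at 2.10. Of 20 noncoding RNA genes 9 fell and 5 rose (14 and 2 relative to library totals). Malat1 and Neat1, which stay in the nucleus, changed by 1.94 and 1.71, and the small nucleolar RNA host gene Snhg12 by -1.99.

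Genes higher beyond 2-fold had a median exon length of 3585 bases, those lower beyond 2-fold 2960, and all tested 3302. The relation of length to the changes was not tested.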
